A study of Mus musculus with 32 samples.

Results

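The genes described here are the nuclear genes for subunits of the mitochondrial respiratory chain and the ATP synthase, together with factors that assemble complex I. They were taken by symbol from the expression table. A gene was a member if its symbol started with Nduf, Uqcr, Atp5, Cox4, Cox5, Cox6, Cox7 or Cox8, or if it was Sdha, Sdhb, Sdhc or Sdhd. This gave 92 of the 24940 genes in the table: 36 subunits of complex I, 4 of complex II, 8 of complex III, 20 of complex IV, 15 of complex V, 8 complex I assembly factors of the Ndufaf family, and Atp5s, whose product is not a subunit of the enzyme. Ndufa4 and Ndufa4l2 were counted with complex IV, where their products are now placed. The 13 genes of the mitochondrial DNA were not analysed here.

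RNA and open chromatin were profiled in 4 populations of mononuclear phagocytes sorted from mouse lung: the AM (alveolar macrophages), the IM (interstitial macrophages), the iMo (inflammatory monocytes) and the pMo (patrolling monocytes). Each was taken from C57BL6J and from DBA2J mice, which are inbred laboratory strains, with 2 RNA libraries per cell type and strain and 16 in all. All samples are labelled as untreated, although the title of the study speaks of activated cells, and no age, sex or pooling of animals is given in the labels. For iMo and pMo the labels disagree, with macrophages in the source field and monocytes in the description of the design. Cells were sorted with antibodies to SiglecF, Ly6g, Ly6c, CD64, F4/80, CD11b, CD11c and CD45. Whether the 2 libraries of a group stem from different animals is not stated. Every p-value here therefore reflects only how far these libraries spread, which may be technical.

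Complex I (NADH dehydrogenase) and complex II (succinate dehydrogenase) pass electrons from nutrients to ubiquinone, complex III (the cytochrome bc1 complex) passes them to cytochrome c, and complex IV (cytochrome c oxidase) passes them to oxygen. Complexes I, III and IV pump protons across the inner mitochondrial membrane, and complex V (ATP synthase) uses the returning protons to make ATP. Alveolar macrophages live in the airspaces, clear surfactant lipid and are known for a metabolism that leans on mitochondrial oxidation of fatty acids, whereas monocytes are known for a larger use of glycolysis.

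Levels are the authors' TPM values after the ribosomal RNA gene Rn45s and the small ribosomal entry Mir6236 were taken out and each library was rescaled to 1000000. This matters here because the ribosomal entries held 64.3 to 67.6% of the given TPM in AM and 22.6 to 57.4% in the other libraries. The table divides each gene by its genomic span from start to end, introns included, so a TPM value is a level per span and not per length of transcript. From the values themselves the table held between 6676151 and 22616559 reads in genes per library. The AM libraries had at least 13508301 and the other 12 had at most 14012230. The summed AM markers were 5187 to 8344 TPM in AM and at most 2205 TPM elsewhere, and the pMo markers were highest in pMo, at 13704 to 15382 TPM. The iMo markers were highest in iMo (5432 to 7056 TPM against at most 4512 TPM). The IM markers, which were 13247 to 34182 TPM in IM and 5301 to 10698 TPM in the monocytes, were accompanied in IM by 7024 to 10751 TPM of 8 neutrophil markers. The neutrophil sum was at most 530 TPM in any other library.

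With the ribosomal entries removed and the libraries rescaled, the members together were most abundant in AM. Counts on the TPM as deposited are given with the comparisons below. Their summed level was 9229 and 9576 TPM in the C57BL6J AM libraries and 8148 and 7267 TPM in the DBA2J AM libraries. In IM the sum was 4299, 5212, 4557 and 5063 TPM. In iMo it was 7520, 5708, 5683 and 5563 TPM, and in pMo 5189, 5099, 5105 and 4132 TPM, with the C57BL6J libraries first each time. The highest iMo library, C57BL6J replicate 1, therefore lay above the lowest AM library, while no IM or pMo library did. As a share of reads outside the ribosomal entries, the members held 0.291 to 0.385% in AM, 0.195 to 0.236% in IM, 0.241 to 0.325% in iMo and 0.173 to 0.226% in pMo. In bulk samples, fewer cells of a type and less RNA per cell cannot be told apart.

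**Figure D1:**
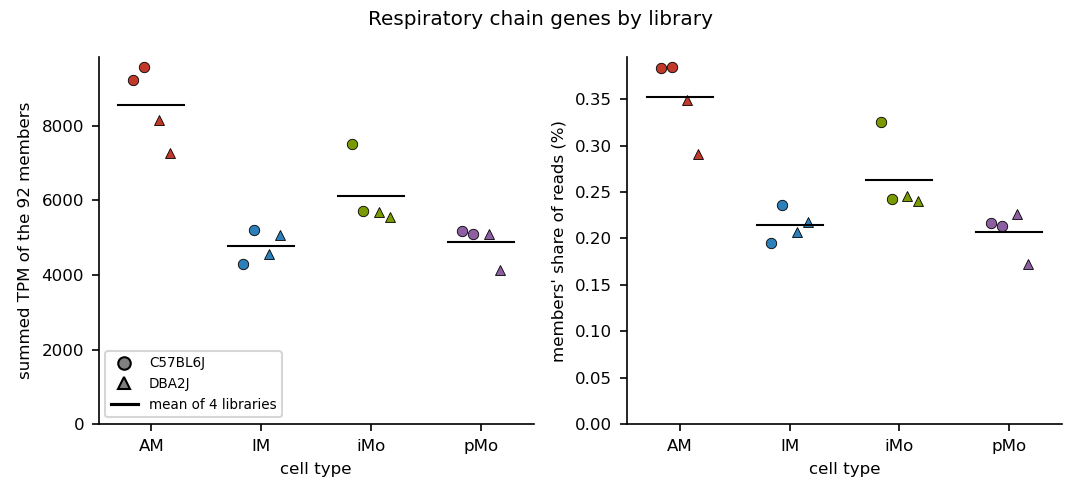
Summed level of the members per library in TPM (left) and as a percent of reads outside the ribosomal entries (right), by cell type. Circles are C57BL6J libraries, triangles DBA2J libraries and bars the mean of 4 libraries. The 4 AM libraries lie between 7267 and 9576 TPM, and 1 iMo library, at 7520 TPM, overlaps them.

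Of the 92 members, 87 passed the filter on low values (an average of 1 TPM or more across the 16 libraries) and were tested. The other 5 were alternative forms of complex IV subunits known from other tissues: Cox4i2, Cox7b2, Cox8b, Cox8c and Ndufa4l2. Cox4i2, a form of subunit 4 described as abundant in whole lung, reached at most 1.72 TPM in these cells, and Cox8c was listed at 0 in every library. Per span, the most abundant members were Atp5b (mean of 619 TPM over all libraries), the catalytic beta subunit of ATP synthase, and its partner Atp5a1 (520 TPM). Of the 87 tested members, 55 (63.2%) had their highest mean level in AM, against 27.1% of all genes tested. IM held the highest mean for 23 members (26.4%, against 38.8% of all genes), iMo for 6 and pMo for 3. The lowest mean was in AM for 9 members (10.3%, against 40.2% of all genes).

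**Figure D2:**
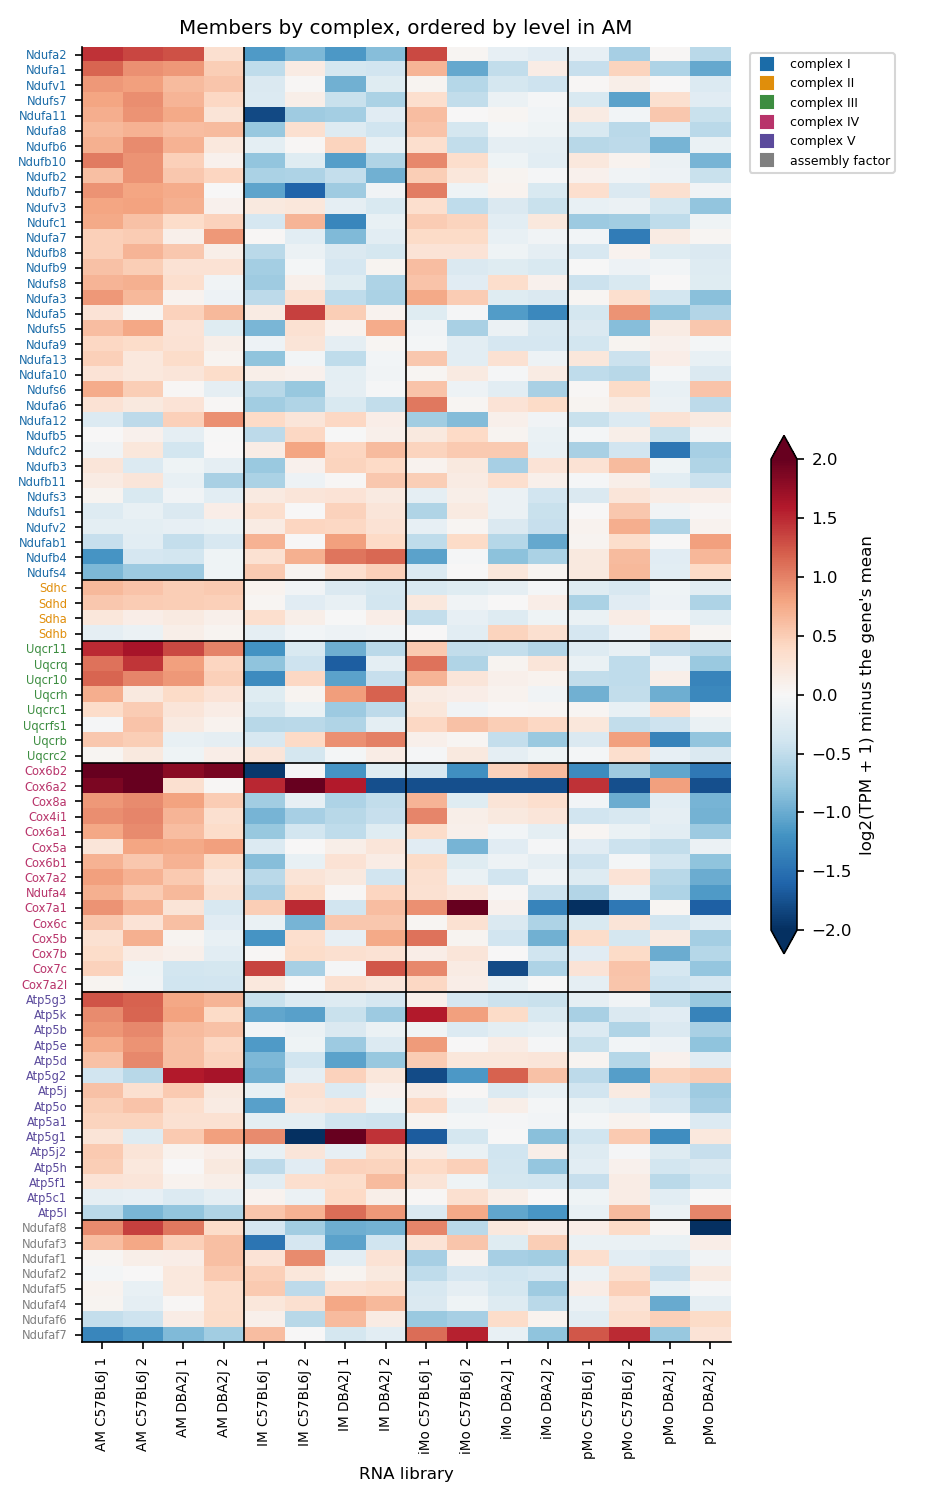
Level of 85 tested members (rows, by complex) in the 16 RNA libraries (columns), as log2(TPM + 1) minus the gene's mean over libraries, with colours ending at -2 and 2. Most rows are high in the 4 AM columns, and the rows at the foot of each complex are low there.

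The first comparison was between the macrophages of the airspace and those of the tissue. Of the 87 tested members, 45 were higher and 9 lower in AM than in IM at an adjusted p under 0.05 (limma on log2(TPM + 1), Benjamini-Hochberg over 13873 genes). Among all genes tested, 19.7% were higher and 38.9% lower in AM. The members' median log2 difference was 0.55, while that of all genes was -0.27. For 37 of the 45 higher and 7 of the 9 lower members the 4 AM and the 4 IM libraries did not overlap. Such separation was not counted over all genes, so these counts have no background here. The count of lower members was 5 without AM DBA2J replicate 1 and also without IM DBA2J replicate 1. This split depends on the scaling. On the TPM as deposited, ribosomal entries included, 20 members were higher and 26 lower in AM (all genes: 9.17% and 61.1%), and with median-of-ratios scaling the counts were 55 higher and 5 lower (all genes: 31.1% and 28.1%). The members' median lay above that of all genes each time: 0.05 against -0.68 as deposited, and 0.91 against 0.05 with median-of-ratios scaling.

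Against the monocytes, taken as the mean of iMo and pMo, 47 members were higher in AM and 3 lower, where 27.6% and 30.1% of all genes were higher and lower. The median log2 difference was 0.50 for the members and -0.02 for all genes. The AM libraries lay above all 8 monocyte libraries for 19 of the 47, and the 3 lower members overlapped. This separation, too, was not counted over all genes. On the TPM as deposited the counts were 8 higher and 19 lower (all genes: 14.3% and 54.3%), with medians of -0.02 for the members and -0.49 for all genes. Without pMo C57BL6J replicate 1 the count of lower members was 5. This comparison and the one with IM use the same AM libraries, so their values are given side by side and are not independent.

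**Figure D3:**
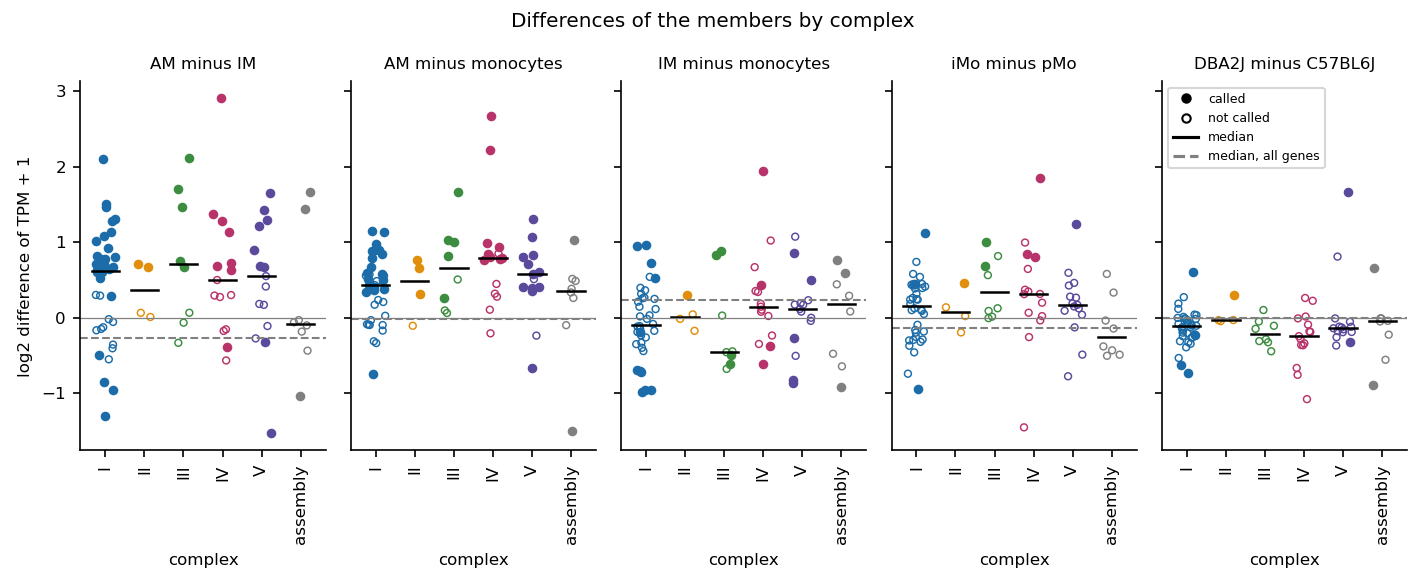
Log2 difference of TPM + 1 for each of 86 tested members (Atp5s left out), by complex, in the 5 main comparisons. Filled points passed an adjusted p of 0.05, bars are the medians of a complex and dashed lines the median of all genes tested. In both AM comparisons the medians of complexes I to V lie above the dashed line.

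Within complex I, 22 of 36 subunits were higher in AM than in IM and 4 were lower, with a median log2 difference of 0.62. Of the 7 core subunits, which hold the flavin and the iron-sulphur chain, 4 were higher and 1 was lower. Ndufv1, the core subunit that binds NADH, had 225, 218, 193 and 181 TPM in AM and 63.3 to 134 TPM in the other 12 libraries. The groups did not overlap, and the log2 difference from IM was 1.08 ± 0.17 (SE; adjusted p = 3.29e-04). Ndufv2, its neighbour in the same module, was called lower on this scale. AM had 18.3 to 19.2 TPM and IM 23.7 to 28.7 TPM (log2 difference -0.49 ± 0.18, adjusted p = 0.0328). The call on Ndufv2 was lost in 7 of the 16 refits that each left out 1 library, namely any AM library or any IM library except IM C57BL6J replicate 1 (adjusted p of 0.0581 to 0.0927). Its difference was -0.14 under median-of-ratios scaling (adjusted p = 0.423), -0.16 under quantile normalization (adjusted p = 0.377) and -0.30 on depth-scaled reads (adjusted p = 0.109).

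Among the 29 accessory subunits of complex I, 18 were higher in AM than in IM and 3 were lower. Ndufa2 had the largest difference, at 2.10 ± 0.28 on the log2 scale (adjusted p = 1.04e-04), with 96.5 to 210 TPM in AM and 34.3 to 42.1 TPM in IM. Its monocyte levels, 48.0 to 193.7 TPM, overlapped those of AM. The Ndufa2 gene overlaps another gene, Tmco6, in the table. The lower ones were Ndufb4, Ndufs4 and Ndufab1. Ndufs4, an accessory subunit of the electron input module whose loss causes complex I deficiency, had 6.77, 7.74, 7.79 and 12.6 TPM in AM. In the other 12 libraries it had 10.9 to 21.6 TPM with a median of 15.8 TPM, and its log2 difference was -0.95 ± 0.20 from IM (adjusted p = 0.00198) and -0.74 ± 0.17 from the monocytes (adjusted p = 0.00359). In DBA2J libraries alone Ndufs4 was not called, at -0.81 from IM (adjusted p = 0.0674) and -0.52 from the monocytes (adjusted p = 0.147). Ndufb4 was at 2.49 to 6.43 TPM in AM and 8.70 to 16.5 TPM in IM (log2 difference -1.30 ± 0.29, adjusted p = 0.0029). It was not called in C57BL6J libraries alone, at -1.27 (adjusted p = 0.0906). Ndufab1, the mitochondrial acyl carrier protein, differed by -0.85 ± 0.26 from IM (adjusted p = 0.0154), a call lost without replicate 1 of AM or of IM in either strain (adjusted p up to 0.0621). With median-of-ratios scaling and quantile normalization Ndufab1 was not called either, at -0.51 (adjusted p = 0.0554) and -0.46 (adjusted p = 0.0909). Against the monocytes 18 complex I subunits were higher and only Ndufs4 was lower.

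In complex II, Sdhc and Sdhd, which anchor the enzyme in the membrane, were higher in AM, and the catalytic subunits Sdha and Sdhb did not differ detectably from IM. Sdhc had 55.3, 52.5, 49.6 and 50.8 TPM in AM and between 27.3 and 36.9 TPM, with a median of 29.9 TPM, in the other 12 libraries. All 4 AM libraries lay above the other 12, with log2 differences of 0.71 ± 0.08 from IM (adjusted p = 3.98e-05) and 0.76 ± 0.07 from the monocytes (adjusted p = 5.4e-06). Sdhd had 132 to 137 TPM in AM and 60.4 to 109 TPM elsewhere, and its difference from IM was 0.68 ± 0.14 (adjusted p = 0.00158). For Sdha, the flavoprotein, the difference from IM was 0.01 ± 0.11 (adjusted p = 0.935), and for Sdhb, the iron-sulphur subunit, 0.07 ± 0.10 (adjusted p = 0.595). Sdha was above the monocytes in AM by 0.31 (adjusted p = 0.0145) and in IM by 0.30 (adjusted p = 0.0232). These calls between AM and IM depend on the scaling. With median-of-ratios scaling Sdha and Sdhb were called higher in AM, at 0.37 and 0.43. On the TPM as deposited they were called lower, at -0.51 (adjusted p = 0.00186) and -0.45 (adjusted p = 0.00427), while Sdhc and Sdhd were not called, at 0.18 (adjusted p = 0.095) and 0.14 (adjusted p = 0.334). In each of these scalings the differences of Sdhc and Sdhd were above those of Sdha and Sdhb.

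In complex III, 5 of 8 subunits were higher in AM than in IM and the other 3 were not called, with a median of 0.71. The small subunit Uqcr11 stood out, and the 300 bases around its start (GRCm38.p6 of the C57BL6J reference, RefSeq, chr10:80406772-80407071, minus strand, 250 bases before to 50 after the start) are shown because no AM peak list had a peak there. Capitals mark the letters CCGGAAGT, a motif of ETS family factors such as GABP.
Uqcr11: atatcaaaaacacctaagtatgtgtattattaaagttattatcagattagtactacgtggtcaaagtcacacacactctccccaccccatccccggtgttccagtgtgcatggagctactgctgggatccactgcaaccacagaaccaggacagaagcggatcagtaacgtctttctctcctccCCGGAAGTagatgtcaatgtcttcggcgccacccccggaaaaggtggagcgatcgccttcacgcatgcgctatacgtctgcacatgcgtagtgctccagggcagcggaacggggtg
Uqcr11 had 72.9, 81.2, 64.2 and 51.2 TPM in AM. In the other 12 libraries it had 10.5 to 36.7 TPM with a median of 17.7 TPM, so the groups did not overlap. The log2 difference was 2.11 ± 0.24 from IM (adjusted p = 2.79e-05) and 1.67 ± 0.21 from the monocytes (adjusted p = 4.09e-05). Uqcrq, another small subunit, had 125 to 250 TPM in AM and 28.8 to 80.6 TPM in IM (1.71 ± 0.38, adjusted p = 0.00287). Its monocyte levels, 54.6 to 196.3 TPM, overlapped those of AM. The core subunit Uqcrc1 was also higher in AM than in IM (0.75 ± 0.11, adjusted p = 1.72e-04). The Rieske iron-sulphur protein Uqcrfs1 was above IM by 0.67 ± 0.18 (adjusted p = 0.00727), but its difference from the monocytes was 0.06 (adjusted p = 0.739). Uqcrfs1 was not called against IM on the TPM as deposited (0.13, adjusted p = 0.513).

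In complex IV, 7 of 15 tested subunits were higher and 1 lower in AM against IM. Against the monocytes 9 were higher and the other 6 were not called. The largest difference of any member in both comparisons was that of Cox6b2, the form of subunit 6B best known from testis. It is annotated on the minus strand at chr7:4751792-4752902 in the table. Its promoter in RefSeq (GRCm38.p6, chr7:4753045-4753344, minus strand) starts 192 bases upstream of the start in the table, and capitals mark CCAAT, or its reverse complement ATTGG, which is read by the factor NF-Y.
Cox6b2: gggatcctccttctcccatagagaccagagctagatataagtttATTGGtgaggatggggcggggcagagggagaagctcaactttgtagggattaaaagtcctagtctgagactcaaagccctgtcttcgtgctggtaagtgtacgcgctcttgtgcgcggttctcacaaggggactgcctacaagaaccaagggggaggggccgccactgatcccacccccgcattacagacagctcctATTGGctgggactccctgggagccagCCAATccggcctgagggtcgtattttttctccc
Cox6b2 had 277, 290, 206 and 218 TPM in AM, from 201 to 329 reads per library. The other 12 libraries had 14.5 to 90.2 TPM with a median of 31.4 TPM, from 6 to 64 reads. All AM libraries lay above all others, with log2 differences of 2.90 ± 0.38 from IM (adjusted p = 7.5e-05) and 2.67 ± 0.33 from the monocytes (adjusted p = 3.51e-05). In mean TPM, AM had 6.82 times the IM level and 5.70 times the monocyte level. Kmt5c, a histone methyltransferase gene on the same chromosome, had 250 to 296 TPM in AM, 129 to 243 TPM in IM and 186 to 334 TPM in the monocytes. Its AM libraries thus lay above those of IM, as for Cox6b2, but overlapped the monocytes. Peaks of open chromatin within 500 bp of the Cox6b2 start were listed for IM of C57BL6J and iMo of DBA2J, and not for AM.

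Other subunits of complex IV that were higher in AM than in IM included Cox4i1, the ubiquitous form of subunit 4, which differed by 1.38 ± 0.20 (adjusted p = 1.7e-04) with 239 to 379 TPM in AM and 101 to 139 TPM in IM. Cox8a differed by 1.28 ± 0.26 (adjusted p = 0.00149), with 405 to 549 TPM in AM and 143 to 454 TPM in the other 12 libraries, where iMo C57BL6J replicate 1 reached into the AM range. The monocyte levels of Cox4i1, 99.4 to 379 TPM, also overlapped those of AM. Cox6a1 differed from IM by 1.14 ± 0.14 (adjusted p = 5.61e-05). The subunit called lower was Cox7a2l, a relative of Cox7a2 that ties complexes III and IV together, at -0.39 ± 0.15 (adjusted p = 0.043). That call was lost in 11 of the 16 refits without 1 library, those without any AM or DBA2J library or IM C57BL6J replicate 1 (adjusted p up to 0.116). The difference of Cox7a2l was -0.03 under median-of-ratios scaling (adjusted p = 0.854), -0.11 under quantile normalization (adjusted p = 0.492) and -0.11 in C57BL6J libraries alone (adjusted p = 0.784). Cox7a2l is taken up with the paired forms.

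Of the 15 subunits of ATP synthase, 7 were higher and 2 lower in AM against IM. Against the monocytes 11 were higher and 1 lower. The catalytic subunit Atp5b had 1077, 1139, 902 and 872 TPM in AM and 374 to 564 TPM, with a median of 495.5 TPM, in the other 12 libraries. The difference was 0.90 ± 0.10 from IM (adjusted p = 3.06e-05) and 1.07 ± 0.09 from the monocytes (adjusted p = 1.6e-06), and it was also past the threshold on the TPM as deposited, at 0.36 and 0.53. Atp5g3, 1 of 3 genes for the same membrane ring subunit c, had 309 to 460 TPM in AM and 113 to 207 TPM elsewhere (1.30 ± 0.11 from IM, adjusted p = 2.27e-06, and 1.30 ± 0.09 from the monocytes, adjusted p = 4.02e-07). Atp5d, in the central stalk, and the small subunit Atp5k were above IM by 1.43 ± 0.17 (adjusted p = 3.87e-05) and 1.65 ± 0.26 (adjusted p = 3.35e-04). Atp5l, subunit g of the membrane part, had 9.81, 7.32, 8.09 and 9.32 TPM in AM and 22.1, 24.6, 33.2 and 27.8 TPM in IM. These groups did not overlap (-1.53 ± 0.29, adjusted p = 0.00102). Its difference from the monocytes, -0.67 ± 0.25 (adjusted p = 0.0398), was lost in 13 of the 16 refits without 1 library, all except those without replicate 1 of iMo or pMo from C57BL6J or of pMo from DBA2J (adjusted p up to 0.144). In DBA2J libraries alone that difference of Atp5l was -0.37 (adjusted p = 0.386).

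Of the 8 assembly factors 2 were higher and 1 was lower in AM against IM, where 19.7% and 38.9% of all genes were. Their median difference was -0.08, beside -0.27 for all genes. Ndufaf3 and Ndufaf8, both small proteins, were above IM by 1.44 ± 0.25 (adjusted p = 6.19e-04) and 1.67 ± 0.43 (adjusted p = 0.00701). Ndufaf7, a methyltransferase, was lower in AM, with differences of -1.03 ± 0.24 from IM (adjusted p = 0.00388) and -1.50 ± 0.21 from the monocytes (adjusted p = 9.63e-05). In DBA2J libraries alone neither was called, at -0.51 (adjusted p = 0.322) and -0.43 (adjusted p = 0.344), and without both C57BL6J IM libraries the difference from IM was -0.73 (adjusted p = 0.0523). Its values by strain are given with the strain comparison.

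The size of the AM difference went with the genomic span of the gene. The 30 members with spans up to 5 kb had a median log2 difference between AM and IM of 1.14, with 22 higher and the other 8 not called. The 31 members over 5 and up to 10 kb had a median of 0.61, with 16 higher and 2 lower. The 26 members over 10 kb had a median of -0.04, with 7 higher and 7 lower. All genes tested showed the same order, with medians of 0.27, -0.03 and -0.42 in these bins. The members' median was above that of all genes in each. Calls over all genes were not counted per bin, so the members' called counts have no background here. Across the 87 members Spearman's rho between span and difference was -0.53, and across all genes -0.26. The points share the same libraries, and each value has the span as its divisor in every library. For AM against the monocytes the medians of the members were 0.75, 0.52 and 0.24, and those of all genes 0.27, 0.10 and -0.12. For iMo against pMo they were 0.43, 0.19 and -0.09 for the members and 0.00, -0.07 and -0.17 for all genes. The values for the members that were lower in AM (Atp5l, Ndufb4, Ndufs4, Ndufab1) come from spans between 6766 and 100299 bp. Intron reads, RNA quality and library preparation were not tested as parts of this relation.

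**Figure D4:**
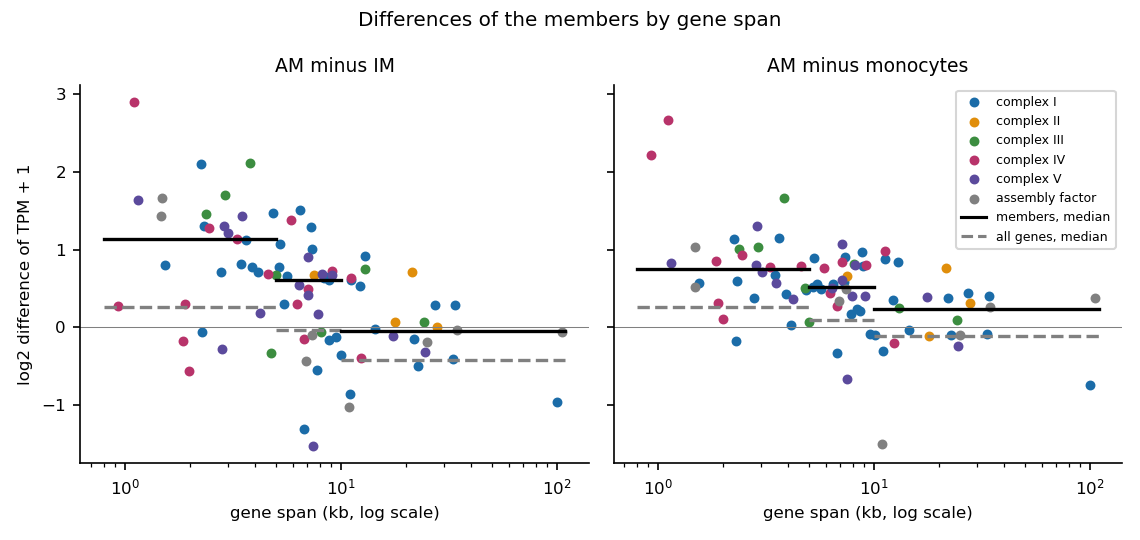
Log2 difference of TPM + 1 for each of 86 tested members (points, coloured by complex) against the span of its gene in kb on a log scale, for AM minus IM and AM minus monocytes. Solid lines are medians of the members per span bin and dashed lines medians of all genes. In AM minus IM the members' medians fall from 1.14 to -0.04 over the 3 bins.

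Between the other macrophage, IM, and the monocytes the members differed in both directions, with a median below that of all genes. Of the 87 members 14 were higher in IM and 15 lower, with 33.4% and 12% of all genes higher and lower. The medians were 0.03 for the members and 0.24 for all genes. With median-of-ratios scaling the counts were 7 and 24, with 22.9% and 24.2% of all genes, and the medians -0.23 and -0.01. The count of higher members was 9 without IM DBA2J replicate 2. All IM values come from libraries with high neutrophil markers (7024 to 10751 TPM, against 285 to 530 TPM in the monocytes). All 8 markers were highest in IM, from S100a8 at 2831 to 3592 TPM to Ly6g at 0.693 to 5.21 TPM, and Ly6g was at 0 in every monocyte library. The 3 platelet markers summed to 512 to 1934 TPM in IM, nearly all of it Pf4, and to at most 33.8 TPM elsewhere. The other platelet markers did not set IM apart. Itga2b was at 2.588 to 5.033 TPM in IM and 3.808 to 8.093 TPM in pMo, with 1.358 to 2.555 TPM in AM and 0.813 to 3.755 TPM in iMo. The Ppbp levels of IM overlapped those of every other cell type. Whether platelets were present was not tested, and neither was the part of neutrophils in the differences.

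The subunits higher in IM than in the monocytes included Uqcrh, the hinge protein of complex III, at 0.88 ± 0.13 (adjusted p = 3.76e-04), and Ndufb4 at 0.97 ± 0.25 (adjusted p = 0.00956). In C57BL6J libraries alone neither was called, with Uqcrh at 0.19 (adjusted p = 0.567) and Ndufb4 at 0.57 (adjusted p = 0.376), and with quantile normalization Ndufb4 was at 0.37 (adjusted p = 0.218). Uqcrb, the ubiquinone-binding protein of complex III, was called at 0.84 ± 0.21 (adjusted p = 0.00815), but in the C57BL6J libraries alone its difference was -0.13 (adjusted p = 0.848). Its IM levels were 9.53 and 16.3 TPM in C57BL6J and 23.8 and 25.3 TPM in DBA2J. Those lower in IM included Atp5d at -0.86 ± 0.15 (adjusted p = 8.43e-04), Ndufb2 at -0.70 ± 0.12 (adjusted p = 9.41e-04), Ndufb7 at -0.98 ± 0.25 (adjusted p = 0.00773) and the assembly factor Ndufaf3 at -0.92 ± 0.22 (adjusted p = 0.00575). Ndufb7 was not called in DBA2J libraries alone (-0.39, adjusted p = 0.328) or without both C57BL6J IM libraries (-0.51, adjusted p = 0.225). Complexes I, III and V each had members in both directions (4 higher and 7 lower, 2 and 2, 2 and 3).

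Between the monocytes, 9 members were higher in iMo than in pMo and 1 was lower, beside 8.31% and 14.1% of all genes. The medians were 0.15 and -0.13. The count of higher members was 5 without iMo DBA2J replicate 1. It was 2 in C57BL6J libraries alone, 3 in DBA2J libraries alone and 35 on the TPM as deposited, where 18.9% of all genes were higher and 6.35% lower. The largest differences with over 10 TPM and separated libraries were in Ndufc2 and Uqcrh. Ndufc2, an accessory subunit of the complex I membrane arm, had 24.8, 26.3, 26.3 and 16.1 TPM in iMo and 11.1, 13.6, 5.93 and 11.03 TPM in pMo (1.12 ± 0.23, adjusted p = 0.00507). Uqcrh had 71.8, 70.6, 67.1 and 61.1 TPM in iMo and 32.6, 45.1, 32.1 and 25.5 TPM in pMo (1.00 ± 0.15, adjusted p = 9.69e-04). The lowest iMo library lay above the highest pMo library for both genes. Cox4i1 (0.84 ± 0.20, adjusted p = 0.012), Uqcrfs1 (0.68 ± 0.18, adjusted p = 0.0178), Sdhd (0.47 ± 0.14, adjusted p = 0.0322) and Ndufa10 (0.45 ± 0.11, adjusted p = 0.0119) were also higher with no overlap. Cox7a1, the form of subunit 7A known from heart and skeletal muscle, was called at 1.85 (adjusted p = 0.0214) on at most 17 reads per library, and lost its call without iMo C57BL6J replicate 2, iMo DBA2J replicate 1, pMo C57BL6J replicate 1 or pMo DBA2J replicate 2 (adjusted p up to 0.0898). The mean levels of Cox7a1 in iMo and pMo were 17.4 and 0.582 TPM in C57BL6J but 3.28 and 2.93 TPM in DBA2J, where the difference was 0.19 (adjusted p = 0.929). The member lower in iMo was Ndufb4 (-0.95 ± 0.29, adjusted p = 0.0391).

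The strains were compared over the 4 cell types. Nnt, a gene with a known deletion in C57BL6J, had been planned as a check of the strain labels. It had 6.64 to 30.1 TPM in C57BL6J and 7.67 to 20.3 TPM in DBA2J. Its level did not separate the strains, so it did not serve as a check. In DBA2J 5 members were higher and 5 lower than in C57BL6J, with 6.61% and 6.34% of all genes, so the members' shares were near the background. The median was -0.13 for the members and 0.00 for all genes, and 17 of the 87 differences were above 0. The higher count was 3 without iMo DBA2J replicate 1. The lower count was 3 without iMo DBA2J replicate 2 and 9 without pMo C57BL6J replicate 1. The reads of both strains were set against mm10, which is a C57BL6J genome, and the effect of strain variants on read counts was not tested.

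The exception in size was Atp5g2, a gene for subunit c of ATP synthase. Its promoter (GRCm38.p6, chr15:102670998-102671297, minus strand) and that of Atp5g3 (chr2:73911277-73911576, minus strand), which codes for the same mature protein, are shown side by side. Capitals mark the motif of the factor NRF1 (GCGCA, any base, then GCGC) in both, and CCAAT in Atp5g3 alone.
Atp5g2: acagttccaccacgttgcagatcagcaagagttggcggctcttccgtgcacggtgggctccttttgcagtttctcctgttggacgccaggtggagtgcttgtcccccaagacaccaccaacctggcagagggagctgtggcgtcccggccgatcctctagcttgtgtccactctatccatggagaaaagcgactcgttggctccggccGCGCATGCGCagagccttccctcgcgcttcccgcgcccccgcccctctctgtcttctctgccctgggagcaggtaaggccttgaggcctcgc
Atp5g3: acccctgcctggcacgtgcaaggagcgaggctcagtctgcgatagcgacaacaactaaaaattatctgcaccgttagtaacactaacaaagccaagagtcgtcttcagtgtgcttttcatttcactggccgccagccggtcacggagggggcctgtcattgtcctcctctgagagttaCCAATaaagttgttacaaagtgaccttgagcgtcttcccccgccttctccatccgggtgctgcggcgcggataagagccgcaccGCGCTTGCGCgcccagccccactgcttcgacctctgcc
Atp5g2 had 10.3 and 8.98 TPM in C57BL6J AM, 6.54 and 11.97 TPM in IM, 3.24 and 5.61 TPM in iMo, and 9.24 and 5.82 TPM in pMo. In DBA2J it had 42.9 and 45.2 TPM in AM, 19.2 and 16.1 TPM in IM, 32.2 and 21.1 TPM in iMo, and 19.0 and 19.8 TPM in pMo. Every DBA2J library lay above every C57BL6J library, and the log2 difference was 1.66 ± 0.16 (adjusted p = 4.81e-05). Within cell types the difference was 2.08 in AM (adjusted p = 0.0026), 2.36 in iMo (adjusted p = 0.0017), 1.29 in pMo (adjusted p = 0.0462) and 0.91 in IM (adjusted p = 0.0908). The pMo call was lost in 11 of the 16 refits without 1 library (any AM library, any DBA2J library, or pMo C57BL6J replicate 2, adjusted p up to 0.313). All 8 peak lists had a peak within 500 bp of the Atp5g2 start. Atp5g3 differed by -0.32 ± 0.08 (adjusted p = 0.018), with 8 libraries per strain that overlapped.

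The other members called higher in DBA2J were Ndufaf6, an assembly factor (0.65 ± 0.14, adjusted p = 0.00916), Ndufa12, an accessory subunit of complex I (0.61 ± 0.10, adjusted p = 0.00238), Atp5s (0.63 ± 0.16, adjusted p = 0.0233) and Sdhb (0.30 ± 0.07, adjusted p = 0.0196). The lower ones beside Atp5g3 included Ndufaf7 (-0.89 ± 0.17, adjusted p = 0.00532), Ndufa3 (-0.73 ± 0.12, adjusted p = 0.0025) and Ndufb10 (-0.62 ± 0.15, adjusted p = 0.0205). Of these, Sdhb lost its call without iMo DBA2J replicate 1 (adjusted p = 0.0544). Under median-of-ratios scaling Sdhb, Ndufb10 and Atp5g3 were not called (adjusted p = 0.0761, 0.0514 and 0.0792), and neither were Sdhb and Atp5s on the TPM as deposited (adjusted p = 0.108 and 0.0666). Atp5s lost it in 5 refits without 1 library (AM C57BL6J replicate 2, AM DBA2J replicate 2, iMo DBA2J replicate 1, pMo C57BL6J replicate 1 and pMo DBA2J replicate 2, adjusted p up to 0.0646). Ndufb10 lost it in 4 (AM C57BL6J replicate 1, AM DBA2J replicate 2, IM DBA2J replicate 1 and iMo DBA2J replicate 2, adjusted p up to 0.0604).

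Within single cell types few members were called between strains. In AM 2 were higher and 0 lower (all genes: 3.27% and 1.77%), in IM 2 and 0 (3.96% and 8.12%), in iMo 1 and 2 (1.79% and 1.47%), and in pMo 1 and 1 (2.47% and 2.41%). At an unadjusted p under 0.05 in the same limma fits 4 were higher and 5 lower in AM, 10 and 3 in IM, 6 and 12 in iMo, and 5 and 12 in pMo (all genes: 10.5% and 5.13% in AM, 9.55% and 18% in IM, 7.59% and 6.03% in iMo and 8.88% and 8.69% in pMo). The test of whether the strain difference varied with cell type called 3 members, Atp5h, Uqcrh and Ndufaf7, beside 6.07% of all genes. Atp5h, subunit d of the ATP synthase stalk, had 23.5 and 29.3 TPM in C57BL6J IM and 47.8 and 47.1 TPM in DBA2J IM, but 45.4 and 47.9 TPM in C57BL6J iMo and 26.2 and 19.6 TPM in DBA2J iMo. The strain difference was 0.83 in IM (adjusted p = 0.0152) and -1.01 in iMo (adjusted p = 0.0115), and the interaction had an adjusted p of 0.01 (0.00673 to 0.0405 over its alternatives). The IM call was lost without IM C57BL6J replicate 1 or either DBA2J IM library, and the iMo call without replicate 2 of iMo in either strain.

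Uqcrh had 53.8 and 66.8 TPM in C57BL6J IM and 115 and 147 TPM in DBA2J IM, a difference of 1.10 (adjusted p = 0.00967; 0.0621 without IM DBA2J replicate 2). Its differences in AM, iMo and pMo were -0.13, -0.15 and -0.41. The interaction (adjusted p = 0.0423) was lost in 14 of the 16 refits without 1 library, all except those without AM C57BL6J replicate 2 or pMo C57BL6J replicate 1 (adjusted p of 0.0221 to 0.143 over all alternatives). Ndufaf7 had 40.4 and 54.1 TPM in C57BL6J iMo and 44.1 and 52.3 TPM in C57BL6J pMo, against 16.1 and 9.86 TPM and 10.3 and 22.1 TPM in DBA2J. In IM it had 28.2 and 18.2 TPM in C57BL6J and 13.96 and 15.5 TPM in DBA2J. In AM the values were 6.74 and 7.53 TPM in C57BL6J and 9.35 and 10.7 TPM in DBA2J. The AM libraries lay below all others in C57BL6J and overlapped the monocytes in DBA2J. The strain difference of Ndufaf7 was -1.81 in iMo (adjusted p = 0.0144) and -1.60 in pMo (adjusted p = 0.023), -0.59 in IM (adjusted p = 0.295) and 0.44 in AM (adjusted p = 0.672). Its iMo call was lost without replicate 2 of iMo in either strain, its pMo call without pMo C57BL6J replicate 2 or pMo DBA2J replicate 1, and its interaction (adjusted p = 0.0465) in 13 of 16 such refits, all except those without IM C57BL6J replicate 1 or a DBA2J pMo library (0.00671 to 0.152 over all alternatives).

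Several subunits are coded by pairs or trios of genes, and 7 of the 11 pairs considered were measured well enough for a ratio in each library. With 3 comparisons this gave 21 exact two-sided permutation tests, of which 3 passed after Benjamini-Hochberg adjustment. The log2 ratio of Cox6b2 to Cox6b1, the ubiquitous form, was 1.55 ± 0.27 (SD, n = 4) in AM and -0.42 ± 0.67 (SD, n = 12) in the others (exact permutation p = 0.0011, the smallest possible, adjusted 0.00769). The AM ratios were 1.18 to 1.83 and the others -1.39 to 0.88, so Cox6b2 exceeded Cox6b1 per span in every AM library. In reads the order was the opposite, with 201 to 329 reads for Cox6b2 and 541 to 821 for Cox6b1 in the AM libraries. The ratio therefore does not show which form had more transcripts. Cox6b2 had the largest AM difference of any member in these same libraries, so this ratio is not independent of that difference. Cox6b1 itself was also higher in AM, with 72.6 to 90.4 TPM against 30.0 to 72.2 TPM in the other 12. The ratio of Cox7a2l to Cox7a2 was -1.46 ± 0.13 (SD, n = 4) in AM and -0.44 ± 0.29 (SD, n = 12) elsewhere, again without overlap (exact permutation p = 0.0011, adjusted 0.00769). Between strains, the ratio of Atp5g3 to Atp5g2 was 2.73 ± 0.33 (SD, n = 8) in DBA2J and 4.70 ± 0.72 (SD, n = 8) in C57BL6J (exact permutation p = 0.00016, adjusted 0.00326). Since Atp5g2 had been singled out by its strain difference, this ratio restates it. The other 18 tests did not pass. For the 7 between iMo and pMo the smallest p that 4 against 4 libraries allow is 0.0286 in an exact permutation test, so these could hardly pass the adjustment. Those that did not pass include every ratio with Cox6a2, Cox7a1 or Atp5g1, which had at most 17, 17 and 31 reads per library. Cox6a2, the muscle form of subunit 6A, overlaps Itgad in the table, and Itgad had 21.6 and 19.1 TPM in C57BL6J AM and at most 5.93 TPM in any other library.

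**Figure D5:**
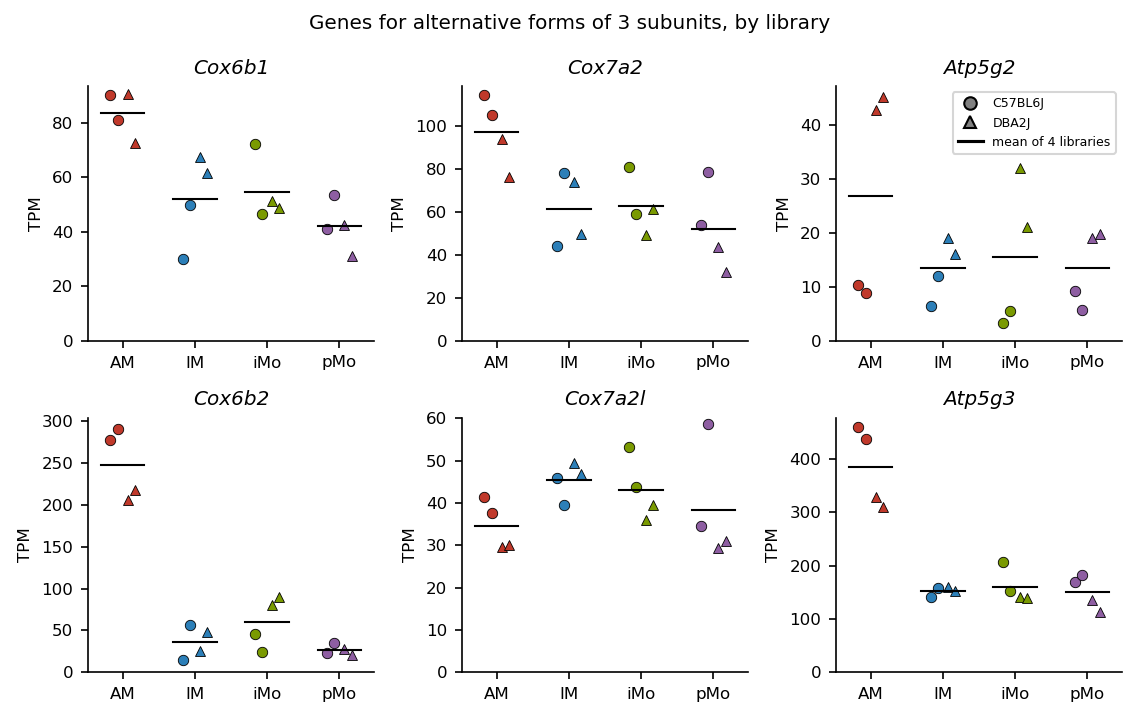
TPM of genes for alternative forms of 3 subunits in each library, by cell type, with circles for C57BL6J, triangles for DBA2J and bars for the mean of 4 libraries. Cox6b2 is at 206 TPM or more in AM and at 90.2 TPM or less elsewhere, and Atp5g2 is separated by strain in every cell type.

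The balance between complexes was compared as each complex's share of the summed level of all subunits, which does not depend on the scaling of a library. AM had a smaller share of complex I, 23.6 ± 1.04% (SD, n = 4) against 26.5 ± 1.58% (SD, n = 12) in the other libraries, and a larger share of complex IV, 23.0 ± 0.55% against 20.0 ± 1.88%. Both passed the exact permutation test (p = 0.0022, adjusted 0.0165 over 15 tests), although single libraries overlapped. Without any 1 of the 4 AM libraries both calls were lost (exact permutation test, adjusted p = 0.0659), where the differences were -3.31 to -2.49 and 2.96 to 3.35 percentage points. The share of complex V was 38.3% in AM and 36.8% elsewhere (adjusted p = 0.214 by the same exact permutation test). Between iMo and pMo, where 0.0286 is the smallest p possible, the share of complex III was 11.8 to 12.4% in iMo and 10.3 to 11.4% in pMo, without overlap (exact permutation p = 0.0286, adjusted 0.111). No other share passed between iMo and pMo, and none between strains. These shares weigh genes per span. As shares of reads, which weigh long genes more, the AM difference was -3.86 percentage points for complex I (exact permutation test, adjusted p = 0.00824) and 3.50 for complex V (adjusted p = 0.00824), while that of complex IV, 2.42, did not pass (adjusted p = 0.0989).

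Open chromatin at the members' starts was read from the authors' 8 peak lists, 1 per cell type and strain, so there is no replicate check. A peak lay within 500 bp of the start of 61 of the 87 tested members (70.1%) in AM of C57BL6J and 70 (80.5%) in AM of DBA2J. In the other 6 lists 78 to 83 members (89.7 to 95.4%) had one. Over all genes tested the shares were 55.9% and 61.5% in the AM lists and 65.7 to 79.6% in the others. The AM lists held fewer peaks both at members and at all genes, while the members' RNA, without the ribosomal entries, was highest in AM. A peak was present in all 8 lists for 59 members (67.8%, against 47.7% of all genes) and in none for Atp5f1, Cox6a2 and Ndufaf1. Uqcr11 lacked a peak in both AM lists and in iMo of C57BL6J, and Atp5g3 lacked one in AM of C57BL6J. When just the better-scored part of each list was used, 36 and 46 members (41.4% and 52.9%) had a peak in the AM lists, beside 35.4% and 41.4% of all genes, and 67 to 80 members in the other 6 lists.

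A promoter sequence from RefSeq was matched for 72 tested members. The NRF1 motif (GCGCA, any base, then GCGC), searched on both strands like the others, was found in 18 of them (25.0%), in 9.85% of the 10343 promoters of tested genes and in 4.62% of all 27025. The YY1 motif AAGATGGCG was in 8 (11.1%, against 3.26% and 1.51%). The ETS motif CCGGAAGT was in 5 (6.94%, against 8.25% and 3.97%), and CCAAT was in 32 (44.4%, against 38.3% and 37.6%). None of the motifs was searched outside these 300 bases, and a match of letters is not evidence of binding.

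Other genes of mitochondrial metabolism were counted in the same fits, where 19.7% of all genes were higher and 38.9% lower in AM than in IM (median -0.27). Of 78 mitochondrial ribosomal proteins 25 were higher and 12 lower in AM than in IM (median 0.28), and of 19 TCA cycle and pyruvate dehydrogenase genes 7 were higher and 3 lower (median 0.17), among them Mdh2 at 0.71 (adjusted p = 1.73e-04) and Pdha1 at -0.76 (adjusted p = 4.95e-04). Of 21 carriers and inner membrane proteins 8 were higher and 1 lower (median 0.13). They included the uncoupling protein relative Ucp2, at 4657 to 4874 TPM in AM and 1498 to 2892 TPM in IM, and Etfb, which passes electrons from fatty acid oxidation toward ubiquinone, at 1.87 (adjusted p = 1.91e-06). Of 45 other assembly factors and cytochrome c genes 9 were higher and 4 lower (median 0.03), with Sco2 at 1.31 (adjusted p = 5.04e-05), Cox14 at 1.31 (adjusted p = 9.34e-04) and Cox20 at -1.34 (adjusted p = 2.84e-04). Of 21 glycolytic genes 7 were higher and 8 lower (median 0.03), and against the monocytes 7 were higher and 12 lower (median -0.35), beside 27.6% and 30.1% of all genes (median -0.02). On the TPM as deposited, where 9.17% of all genes were higher and 61.1% lower in AM than in IM, the split turned for the mitochondrial ribosome (7 higher and 24 lower), the TCA cycle genes (0 and 9), the carriers (3 and 9) and the other assembly factors (3 and 15). The medians of these lists were then -0.20, -0.34, -0.36 and -0.34, beside -0.68 for all genes.

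Of 20 tested regulators of mitochondrial biogenesis 7 were higher and 10 lower in AM than in IM, where 19.7% and 38.9% of all genes were. Their median was -0.48, beside -0.27 for all genes. Ppargc1b, a coactivator of mitochondrial genes, had 15.3 to 20.2 TPM in AM, 6.21 to 10.0 TPM in IM and 1.52 to 4.44 TPM in the monocytes. Its difference was 0.98 from IM (adjusted p = 3.87e-04) and 2.25 from the monocytes (adjusted p = 1.33e-07), with no overlap between AM and either group. Pparg, a lipid-sensing receptor needed for AM, was 1.22 above IM (adjusted p = 3.97e-04) and 1.72 above the monocytes (adjusted p = 6.97e-06), although the pMo libraries, at 39.9 to 60.8 TPM, overlapped AM. Hif1a, a driver of glycolytic genes, differed by -1.22 from IM (adjusted p = 4.03e-05), and Polg2, a subunit of the mitochondrial DNA polymerase, by -1.47 (adjusted p = 2.4e-06).

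Some members limit what these counts can carry. In 14 of the 92 another gene of the table overlaps the span, and 10 have pseudogenes named after them in RefSeq, among them Atp5k with 4, Atp5l with 3 and Uqcrh with 2. The labels do not say how reads that fit several places were counted. The median count of reads per library was under 100 for 33 tested members.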

How the data were processed

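The members and gene lists were chosen with earlier results of these data known. RNA levels were deposited by the authors as 1 table of TPM per gene for 16 libraries, and open chromatin as 8 peak lists with a score per peak deposited by the authors, each made from 2 libraries. The submitters' processing notes name mm10 as the build and list HOMER, STAR and Bowtie, with no versions. Per the labels the libraries were strand-specific and made from polyA RNA. What a gene's length means was read from the table: in 99.2% of rows it is end minus start, and TPM times length came out as whole reads (within 0.05 read) for 100% of the 3659 to 5528 values checked per library.

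Rn45s and Mir6236 were removed and columns rescaled. The 13873 genes averaging 1 TPM or more entered limma 3.58.1 (R 4.3.3) as log2(TPM + 1), with 8 group means, 8 residual degrees of freedom and a mean-variance trend. A call needs a p under 0.05 after Benjamini-Hochberg adjustment. A difference on this scale understates the change of low genes. The fit was tested on simulated data. Exact permutation tests (smallest p 0.0011 for 4 against 12 libraries) and peak counts used Python 3.11.15 with numpy 2.4.6, pandas 2.3.3 and scipy 1.17.1, and figures matplotlib 3.10.9. Promoter sequences and names of pseudogenes are from RefSeq tables of GRCm38.p6.

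Named members are the 6 largest called differences per direction and comparison with at least 10 TPM, the genes of the paired forms, the complex II genes, the most abundant member of each complex, members called for strain, and up to 3 called genes per direction of each list. Not all are printed, and 1 member is not reported here by name. Alternatives were other scalings, pseudocount, filters, no trend, a replicate block, each strain alone, and leaving out each library. Depth-scaled reads and shares of reads were added after the data were seen.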

Additional observations from a re-analysis of the deposited data

Results flagged for a closer look

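In groups of 4 libraries, 7 of the 52 sets examined had 1 library apart from the other 3, by Dixon's 95% limit on the gap as a part of the group's range. Chance gives about 1 in 20. The summed level of the members in iMo had a gap of 0.926 of its range, with C57BL6J replicate 1 at 7520 TPM and the others at 5563 to 5708 TPM. In pMo the gap was 0.915, with DBA2J replicate 2 at 4132 TPM and the others at 5099 to 5189 TPM. The share of complex I in IM had a gap of 0.883 (C57BL6J replicate 2 at 26.95%, the others 25.1 to 25.4%), and the share of complex III in pMo 0.957 (C57BL6J replicate 2 at 10.3%, the others 11.4%). The other gaps were in log2 ratios of IM that rest on few reads. They were 0.871 for Cox6a2 to Cox6a1 (DBA2J replicate 2 at -7.45), 0.873 for Cox7a1 to Cox7a2 (DBA2J replicate 1 at -4.07) and 0.831 for Atp5g1 to Atp5g2 (C57BL6J replicate 2 at -3.70).

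In limma's interaction test the strain difference varied between cell types for Atp5h (adjusted p = 0.01), Uqcrh (adjusted p = 0.0423) and Ndufaf7 (adjusted p = 0.0465). These were 3 of the 87 tested members, beside 6.07% of all genes. Of the 16 refits without 1 library, 14 lost the call on Uqcrh and 13 that on Ndufaf7. Atp5h was higher in DBA2J in IM and lower in iMo, Uqcrh was higher in DBA2J in IM, and Ndufaf7 was lower in DBA2J in both monocytes.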

How the results depend on the processing

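Of 1162 refits of counts, shares and ratios, 1014 were scored as kept. A count was kept if it stayed within 1.5 times the main count. A share or ratio was kept if it held its direction and its side of the threshold. Of 2292 refits of 81 results for single members, 2018 kept their direction and side. In 236 a call was lost, and 1 called value reversed, Uqcrb between IM and the monocytes (-0.13 in C57BL6J libraries alone). Causes were not tested. A mean filter of 5 TPM kept every count within 1.5 times.

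Counts are given as higher and lower. On the TPM as deposited they were 20 and 26 for AM against IM, 8 and 19 for AM against monocytes, 35 and 0 for iMo against pMo, 3 higher for strain, 0 higher within pMo, and 1 for the interaction. With median-of-ratios scaling they were 5 lower for AM against IM, 7 and 24 for IM against monocytes, 3 lower for strain and 2 higher within iMo. With quantile normalization they were 4 lower for AM against IM, 3 higher for IM against monocytes, 0 lower for iMo against pMo, 6 higher within IM and 0 higher within pMo. A pseudocount of 0.1 gave 0 higher within pMo, 0.14 for Cox7a1/Cox7a2 and 0.04 for Atp5g1/Atp5g2 in AM against the other libraries. No filter gave 0 lower for iMo against pMo and 0 higher within pMo. No variance trend gave 0 higher within pMo and 1 for the interaction. In C57BL6J libraries alone the counts were 24 and 3 for AM against IM, 19 higher for AM against monocytes, 2 and 7 for IM against monocytes, and 2 and 0 for iMo against pMo. In DBA2J libraries alone they were 0 lower for AM against monocytes, 5 lower for IM against monocytes and 3 higher for iMo against pMo. Without both C57BL6J IM libraries they were 2 lower for iMo against pMo, 11 lower for strain, 1 lower within AM and 3 lower within pMo.

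Recovered reads scaled to library depth gave 17 and 0 for iMo against pMo. Depth-scaled reads with median-of-ratios scaling gave 5 lower for AM against IM, 6 and 27 for IM against monocytes, 14 higher for iMo against pMo and 2 higher within iMo. Shares of reads gave 2.42 for complex IV and 3.50 for complex V in AM, 0.43 for complex V in iMo against pMo and -0.18 for complex V by strain. The better-scored part of the peak lists gave 36 and 46 members in AM of C57BL6J and DBA2J.

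Deviations of libraries with the same replicate number were weakly correlated at most (28 pairs of groups, median 0.02, highest 0.16, 4 over 0.1). Of the 12 pairs within a strain, 2 were over 0.1. These correlations cannot tell whether the number marks a shared animal or day. A replicate block gave 0 higher and 2 lower within pMo and 1 for the interaction, and kept the other counts within 1.5 times.

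Leaving out 1 library at a time, the ranges for AM against IM were 36 to 45 higher and 5 to 10 lower, and for AM against monocytes 33 to 55 and 2 to 5. They were 9 to 16 higher for IM against monocytes, 5 to 13 and 0 to 4 for iMo against pMo, and 3 to 6 and 3 to 9 for strain. Within AM they were 1 to 2 and 0 to 1, within IM 0 to 4 and 0 to 2, within iMo 0 to 3 lower, within pMo 0 to 2 and 0 to 4, and for the interaction 1 to 5. In shares of AM they were -3.31 to -2.49 for complex I, -1.34 to -0.94 for complex II and 2.72 to 3.35 for complex IV. By strain they were -0.51 to 0.58 for complex IV and -0.04 to 0.83 for complex V. For Cox7a2l/Cox7a2 they were -0.19 to 0.01 in iMo against pMo and -0.03 to 0.22 by strain. In iMo against pMo they were -0.90 to 0.20 for Atp5g1/Atp5g2 and -0.41 to 0.76 for Atp5g3/Atp5g2. The median count was 130.5 reads per library over tested members, from 2.5 to 2632.5.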
